A study of Craterostigma plantagineum with 12 samples.

Results

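EARLY FLOWERING 4 (ELF4) is a small plant protein of the circadian clock. In Arabidopsis it joins ELF3 and the MYB-like factor LUX in the evening complex, which builds up around dusk and represses morning-phased clock genes and growth regulators at night. The ELF4-LIKE proteins are its homologues in the same small family, and their roles are less well known. In Arabidopsis the morning factors LHY and CCA1 hold back ELF4 and other evening genes, so the levels of these transcripts normally swing over each day.

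The transcripts described here are the 8 contigs, of 48045 in the expression table, whose description names EARLY FLOWERING 4, ELF4-LIKE 3 or ELF4-LIKE 4. They were chosen by name and also selected on their measured RPKM and fold changes on drying, in which they go opposite ways. Those drying values are therefore described here and not tested. A search of the deposited annotation columns for these names returned the same number, 8. Contigs are stretches of transcript put together from reads, and more than 1 may come from the same gene. The plant is Craterostigma plantagineum, a resurrection plant, able to revive after its leaves have dried almost completely. Leaf RNA of vegetatively propagated plants was sequenced in 4 states of 3 libraries each, with an independent leaf pool of 6 to 9 plants behind every library. Fresh leaves were at 100% relative water content (RWC), partly dried leaves at about 60% RWC after 3 to 4 days in drying pots, and desiccated leaves at 2% RWC after 15 days. Rehydrated leaves came from desiccated plants kept under water for 24 h. All plants grew under lights for 14 h followed by darkness for 8 h. The hour of leaf collection is not given in the sources used here, and the libraries include no plants watered throughout for the same number of days. Water state, days of treatment and hour of collection therefore cannot be told apart, which bears on every result for clock transcripts. In bulk leaf RNA, fewer cells of a type and less RNA per cell cannot be told apart either.

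Each library held 14784251 to 21271288 reads counted on contigs. Levels are RPKM, read counts scaled by contig length and by the reads of the library, which allows levels of different contigs to be compared, and are given as mean ± SD over 3 libraries. The order of single libraries is given in RPKM unless stated otherwise. Fold changes and counts of contigs whose libraries overlap use counts scaled by the TMM method of edgeR instead. Against scaling by library totals, on which RPKM rests, TMM moved the median log2 fold of all tested contigs from -0.44 to -0.22 at 2 against 100% RWC and from 0.51 to 0.13 for rehydrated against 2% RWC. Leaf markers were abundant in all libraries. The summed RPKM of 57 contigs of the Rubisco small chain, chlorophyll-binding proteins and photosystem reaction centres was 48470 to 75896 in the fresh libraries, 13558 to 15421 in those at 60% RWC, 10620 to 13564 in those at 2% and 40747 to 55523 in the rehydrated ones. In the same order, 30 vascular marker contigs summed to 369 to 520, 319 to 340, 211 to 235 and 288 to 307 RPKM, and 6 guard cell contigs to 17.1 to 42.6, 17.4 to 23.1, 7.46 to 8.61 and 49.7 to 64.4. Root markers (3 contigs) summed to 7.31 to 17.3, 4.94 to 6.09, 7.88 to 11.1 and 10.6 to 76.8 RPKM, and flower markers (8 contigs) to 36.1 to 46.3, 26.4 to 36.7, 19.3 to 23.8 and 44.8 to 58.4. No marker contig was without a read in any state. The root sum of 76.8 RPKM came from 1 rehydrated library, and the median of that state was 12.5. The other sums moved with the water states. What part any of these sums had in the results below was not tested.

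The family falls into 2 groups by description. EARLY FLOWERING 4 itself is named for Cp_V2_contig_41823 (325 bases), whose best hit is the protein of Erythranthe guttata, and EARLY FLOWERING 4-like for Cp_V2_contig_15539 (313 bases) and Cp_V2_contig_47147 (308 bases), which share a best hit in Gossypium arboreum. ELF4-LIKE 4-like is named for Cp_V2_contig_20657 (411 bases). ELF4-LIKE 3-like is named for 4 contigs, Cp_V2_contig_38568 (487 bases), Cp_V2_contig_23379 (413 bases), Cp_V2_contig_15444 (665 bases) and Cp_V2_contig_41947 (388 bases), of which the last pair share a best hit in Sesamum indicum. The descriptions are not uniform. The best hit of Cp_V2_contig_23379 is an ELF4-LIKE 4-like protein of Gossypium hirsutum, and the separate Arabidopsis annotation calls all 8 contigs ELF4-like 4, while 5 have ELF4-like 3 among their best Arabidopsis hits. Reads that also match other contigs made up 1.7% of the total for Cp_V2_contig_38568, 0.57% for Cp_V2_contig_15539, 0.089% for Cp_V2_contig_23379 and 0 for the other 5. In a single library the highest such share was 6.41%, for Cp_V2_contig_38568.

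The 3 fresh libraries differed widely in these transcripts, which sets the limits of each comparison with fresh leaves. All 8 members spanned more than 2-fold between the fresh libraries, against 1 of 8 at 60% RWC, 0 of 8 at 2% RWC and 1 of 8 after rehydration. Over all tested contigs, 47.9% spanned more than 2-fold in fresh leaves, and 13.7, 16.0 and 18.4% in the other states in the same order. Fresh replicate 2 was more than 2-fold above both other fresh libraries for 4 members and below both for 0, whereas 6.62% of all tested contigs were that far above and 6.92% that far below. Those 4 members were the 3 EARLY FLOWERING 4 contigs and Cp_V2_contig_38568. Fresh replicate 1 was more than 2-fold above both others for 2 members, Cp_V2_contig_23379 and Cp_V2_contig_15444, and as far below both for 2 members, Cp_V2_contig_47147 and Cp_V2_contig_41947. Among all tested contigs, 8.84% were that far above in this library and 3.22% that far below.

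Other clock transcripts also set fresh replicate 2 apart. The clock lists outside the family, made by words in the descriptions, hold 181 contigs, of which 178 were tested. In fresh replicate 2, 81 of these 178 (45.5%) lay more than 2-fold above or below both other fresh libraries, against 13.5% of all tested contigs. The shares for fresh replicates 1 and 3 were 8.43 and 28.1% of the clock lists, against 12.1 and 12.2% of all tested contigs. The LHY-like contig Cp_V2_contig_218, a morning MYB factor, stood at 335, 13.7 and 530 RPKM in fresh replicates 1, 2 and 3. About 10% of its reads also matched other contigs. Fresh replicate 2 was thus the low library for LHY and the high one for EARLY FLOWERING 4. Replicate 2 was also the lowest for this LHY-like contig at 60% RWC, at 70.1 RPKM against 93.8 and 113. The same held after rehydration, at 106 RPKM against 176 and 158. EARLY FLOWERING 4 (Cp_V2_contig_41823) in replicate 2 lay between the other libraries in both of these states.

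The named contigs of ELF3, pseudo-response regulators, GIGANTEA and ZEITLUPE all had their highest fresh level in replicate 2. The APRR5 contig Cp_V2_contig_42103, a pseudo-response regulator that represses LHY and CCA1 in Arabidopsis, stood at 1.67, 76.7 and 0.954 RPKM in the fresh libraries. GIGANTEA-like Cp_V2_contig_4430, a daytime protein that links the clock to flowering, stood at 24.9, 154 and 6.34 RPKM. This contig was highest in replicate 2 at 60% RWC and after rehydration too, at 94.3 and 93.4 RPKM. APRR7 (Cp_V2_contig_10311) stood at 43.6, 79.7 and 2.18 RPKM, so fresh replicates 1 and 3, which resemble each other in EARLY FLOWERING 4, were unlike in APRR7. What sets the fresh libraries apart was not tested, and the members' folds against fresh leaves are followed below by their values without fresh replicate 2. That library was singled out on its values in these same transcripts. Folds, calls and adjusted p without it therefore only describe how far a result depends on it.

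**Figure D1:**
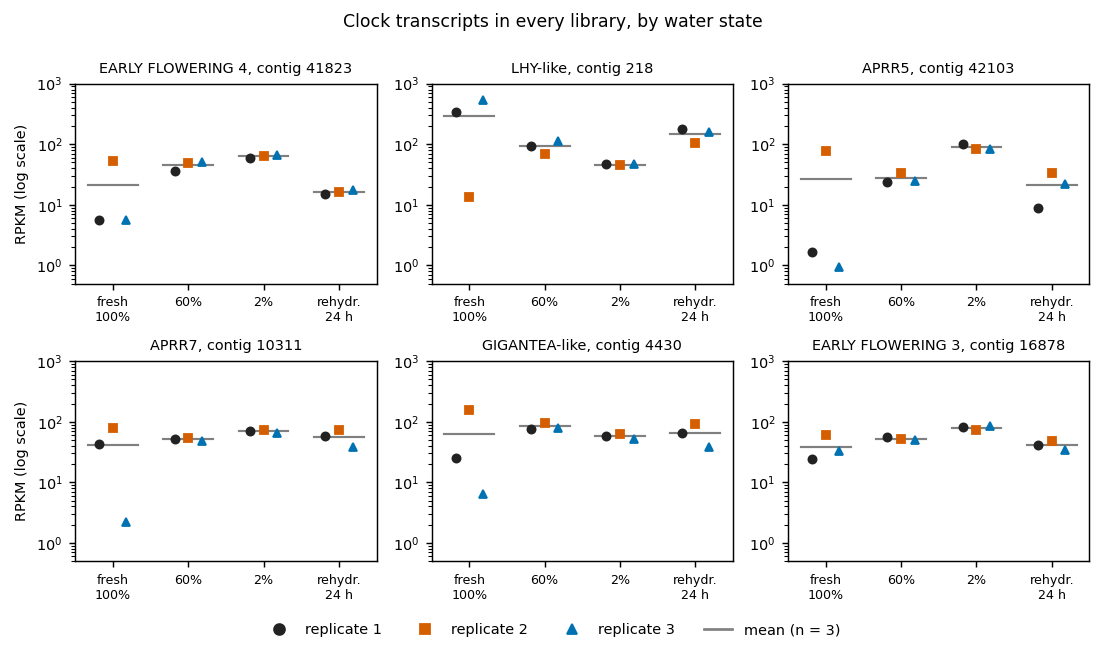
RPKM on a log axis in every library, by water state, for EARLY FLOWERING 4 and 5 other clock contigs. Points are libraries, with colour and shape for the replicate number, and grey lines are means of 3 libraries. Fresh replicate 2 is low for LHY-like (13.7 RPKM against 335 and 530) and high for APRR5 (76.7 against 1.67 and 0.954).

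EARLY FLOWERING 4 (Cp_V2_contig_41823) had the highest mean RPKM of the 8 over all libraries. Its level was 5.67, 53.4 and 5.62 RPKM in fresh replicates 1, 2 and 3, and 36.7, 48.9 and 51.7 at 60% RWC. It reached 58.3, 64.5 and 66 RPKM at 2% RWC and stood at 15.1, 16.2 and 17.3 after rehydration. In RPKM fresh replicate 2 lay above every 60% library, while after TMM scaling it lay below 60% replicates 2 and 3. On both scales fresh replicates 1 and 3 lay below every library of the other states. The 2% libraries were all above the 60% libraries, and the rehydrated libraries lay between the low and the high fresh ones. The state means were 21.6 ± 27.6, 45.8 ± 7.99, 62.9 ± 4.08 and 16.2 ± 1.09 RPKM, so the fresh mean has an SD above its own size and cannot be ranked against the rehydrated mean.

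Cp_V2_contig_15539, EARLY FLOWERING 4-like, followed the same course at a lower level. The fresh libraries held 3.86, 16.3 and 4.11 RPKM and the 60% libraries 11.3, 17.5 and 14.5. At 2% RWC it held 32.2, 38.8 and 35.2 RPKM, and after rehydration at 5.6, 9.44 and 5.37. The 2% libraries stood apart from all others, while fresh, 60% and rehydrated levels differed less clearly, because fresh replicate 2 fell among the 60% libraries and the other fresh libraries lay just below the rehydrated ones.

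Cp_V2_contig_47147, the other EARLY FLOWERING 4-like contig, was near the limit of detection in fresh leaves. It had 0, 23 and 5 reads in the fresh libraries, which is 0, 4.42 and 1.1 RPKM, and a count of 0 in fresh replicate 1 allows up to 3 reads or 0.561 RPKM, for counting error only. It stood at 4.54, 4.67 and 9.23 RPKM at 60% RWC, at 6.79, 9.77 and 5.49 at 2% RWC and at 2.09, 4.8 and 2.63 after rehydration. The 60% and 2% libraries overlapped, and no fresh library reached either of them. Against the 60% libraries, the libraries of 3 of the 8 members did not overlap with the fresh ones, and of all tested contigs 47.1% did not.

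Cp_V2_contig_38568, ELF4-LIKE 3-like, had its highest level after rehydration. Its fresh libraries held 9.58, 34.9 and 10.6 RPKM and its 60% libraries 21.6, 16.6 and 20.1. The 2% libraries held 8.82, 9.27 and 12.6 RPKM and the rehydrated ones 72.3, 72.6 and 56.7. Every rehydrated library lay above every other library, and the 2% libraries overlapped with fresh replicates 1 and 3. The state means were 18.3 ± 14.4, 19.5 ± 2.55, 10.2 ± 2.09 and 67.2 ± 9.08 RPKM. The fresh mean did not differ from the 60% mean or from the 2% mean beyond its spread.

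Cp_V2_contig_20657, ELF4-LIKE 4-like, kept its level at 60% RWC within the fresh range and was low at 2% RWC. Its fresh libraries stood at 24.5, 34 and 12.5 RPKM and its 60% libraries at 27.4, 23.9 and 27.8. At 2% RWC the values were 5.76, 5.6 and 8.56 RPKM, and after rehydration 31.6, 34.7 and 31.8. The 2% libraries were below all others, and the rehydrated ones overlapped with the fresh ones through fresh replicate 2.

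Cp_V2_contig_23379, ELF4-LIKE 3-like, was almost absent from drying leaves. It stood at 47.3, 23.2 and 22.1 RPKM in fresh leaves, from 339, 162 and 135 reads. At 60% RWC only 2, 4 and 8 reads remained, which is 0.271, 0.633 and 1.17 RPKM, and at 2% RWC 9, 9 and 6 reads, which is 1.2, 1.02 and 0.982 RPKM. After rehydration it stood at 24.3, 24.4 and 17.5 RPKM. The 60% and 2% libraries overlapped with each other and lay far below all fresh and rehydrated libraries.

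The remaining ELF4-LIKE 3-like contigs had low levels and smaller differences. Cp_V2_contig_15444 held 20.4, 9.89 and 6.81 RPKM in the fresh and 3.2, 5.6 and 3.46 in the 60% libraries. It held 4.14, 3.68 and 3.36 RPKM in the 2% and 5.01, 9.76 and 6.45 in the rehydrated libraries. All its fresh libraries were above all 60% and 2% libraries, while rehydrated libraries overlapped with the fresh and the 60% ones in RPKM and, after TMM scaling, with the 2% ones. Cp_V2_contig_41947 stayed between 1.63 and 6.87 RPKM in all 12 libraries, and after TMM scaling its libraries overlapped in every comparison described here.

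**Figure D2:**
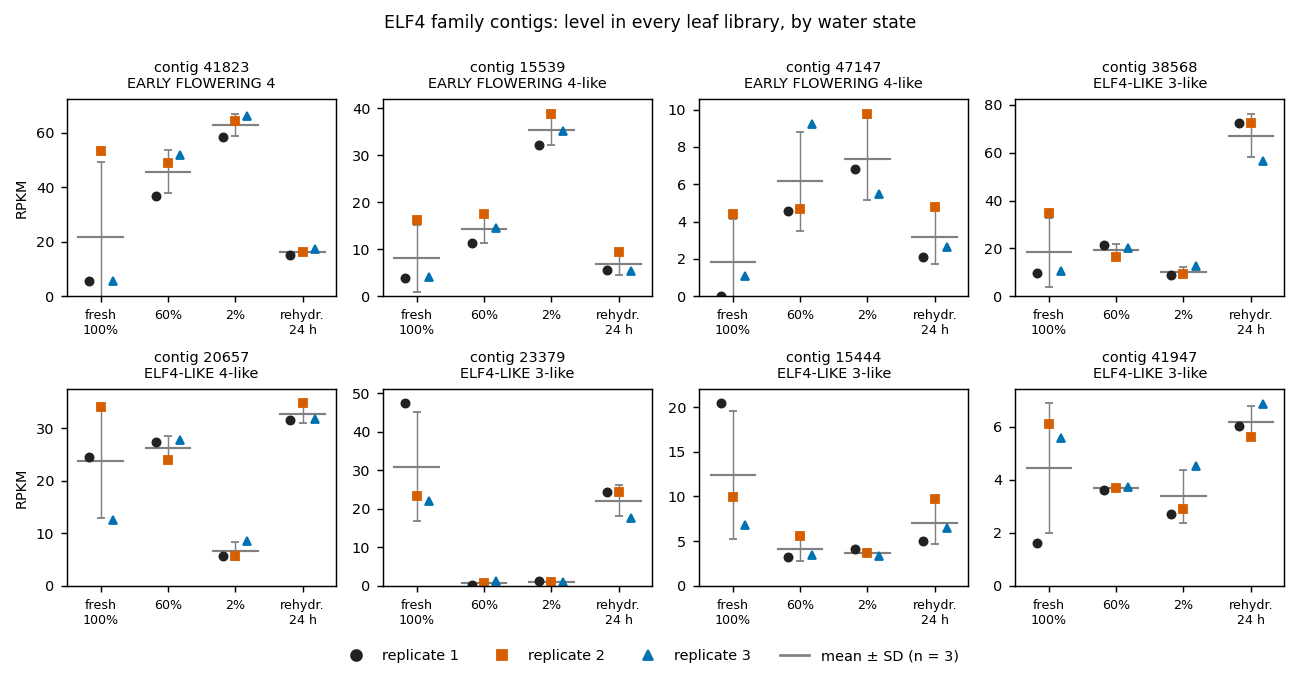
RPKM of the 8 contigs in every library (points, by replicate number) and by state (grey line, mean of 3; bars, SD, cut at 0), on axes that start at 0 and differ between panels. The 3 EARLY FLOWERING 4 contigs have their highest means at 2% RWC, and Cp_V2_contig_38568 reaches 56.7 to 72.6 RPKM only after rehydration.

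The directions on drying were used to list these contigs, so the drying comparisons are a description and no test is drawn from them. Log2 folds are from edgeR's quasi-likelihood fit of all contigs, with their SE. From 100 to 2% RWC the log2 fold was 2.41 (SE 0.44) for Cp_V2_contig_15539, 2.28 (SE 0.76) for Cp_V2_contig_47147 and 1.87 (SE 0.63) for Cp_V2_contig_41823. On the other side it was -4.65 (SE 0.47) for Cp_V2_contig_23379, -1.60 (SE 0.30) for Cp_V2_contig_20657 and -1.56 (SE 0.43) for Cp_V2_contig_15444. Folds of -0.55 (SE 0.38) for Cp_V2_contig_38568 and -0.14 (SE 0.40) for Cp_V2_contig_41947 were within 2 SE of 0. With all libraries, the 3 positive folds were those of the EARLY FLOWERING 4 contigs and the 5 negative ones those of the ELF4-LIKE contigs. Without fresh replicate 2, 3 folds were negative, and those of Cp_V2_contig_38568 and Cp_V2_contig_41947 were 0.16 (SE 0.22) and 0.08 (SE 0.44). By a Benjamini-Hochberg adjusted p below 0.05, 60.9% of 46494 tested contigs were called at 2 against 100% RWC, 26.0% higher and 34.9% lower, and 6 of the 8 members were, from which nothing is read. The libraries of 6 members did not overlap between these states, against 63.1% of tested contigs. The median log2 fold of the 8 was -0.35, against -0.22 over all tested contigs.

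The course of drying differed between members. At 60 against 100% RWC the log2 fold was -5.40 (SE 0.50) for Cp_V2_contig_23379 and -1.54 (SE 0.43) for Cp_V2_contig_15444, and without fresh replicate 2 these were -5.63 (SE 0.47) and -1.75 (SE 0.45). It was 1.90 (SE 0.76) for Cp_V2_contig_47147, 1.00 (SE 0.44) for Cp_V2_contig_15539 and 0.25 (SE 0.37) for Cp_V2_contig_38568. Without that library the last values were 3.55 (SE 0.80), 1.87 (SE 0.31) and 0.97 (SE 0.22). Of the 8 folds, 5 were positive and 3 negative, and without that library 2 were negative. Of all tested contigs 38.9% were called there, 15.6% higher and 23.3% lower. At 2 against 60% RWC the log2 fold was 1.41 (SE 0.42) for Cp_V2_contig_15539 and -1.87 (SE 0.31) for Cp_V2_contig_20657, and of the 8 folds 4 were positive and 4 negative. In this comparison 44.5% of all tested contigs were called, 19.5% higher and 25.0% lower. The libraries of 4 members did not overlap there, against 66.9% of tested contigs. In these libraries Cp_V2_contig_23379 was already low in partly dried leaves, and Cp_V2_contig_20657 was low at 2% RWC and within the fresh range at 60%. Median log2 folds of the 8 were 0.26 at 60 against 100% RWC and 0.19 at 2 against 60% RWC, against -0.06 and -0.13 over all tested contigs.

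The size of the higher levels on drying depended on which fresh libraries were counted. Without fresh replicate 2 the log2 fold from 100 to 2% RWC was 3.61 (SE 0.23) for Cp_V2_contig_41823, 3.29 (SE 0.32) for Cp_V2_contig_15539 and 3.94 (SE 0.80) for Cp_V2_contig_47147. These were the upper ends when each library was left out in turn, and the lower ends were 1.45, 2.12 and 1.72 in the same order. At 60% RWC the fold of Cp_V2_contig_41823 was 1.29 (SE 0.63) with all libraries and 3.03 (SE 0.23) without that library. For Cp_V2_contig_15444 fresh replicate 1 mattered most, and its fold at 2 against 100% RWC was -0.86 without it. Cp_V2_contig_23379 had a fold of -4.88 to -4.09 at 2 against 100% RWC whichever library was left out, and Cp_V2_contig_20657 one of -1.84 to -1.37.

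The family's summed level changed less between states than its make-up. The 8 contigs together summed to 121 ± 57.4 RPKM in the fresh libraries, 121 ± 11.6 in those at 60% RWC, 131 ± 9.39 in those at 2% and 161 ± 16.4 in the rehydrated ones. TMM multiplies library totals by factors of 0.8629 to 0.9185 at 2% RWC and 1.137 to 1.186 after rehydration. The order of the sums in these states therefore depends on the scaling, while shares of a library's sum do not. The EARLY FLOWERING 4 contigs made up 8.44, 40.7 and 15.8% of that sum in fresh replicates 1, 2 and 3, and 48.4, 58.5 and 57.3% in the 60% libraries. They made up 81.1, 83.4 and 78% at 2% RWC and 14.1, 17.2 and 17.5% after rehydration. The highest share in any fresh library, that of replicate 2, was still below the lowest share at 60% RWC. Since the members were listed with their directions known, these shares are given without a test.

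**Figure D3:**
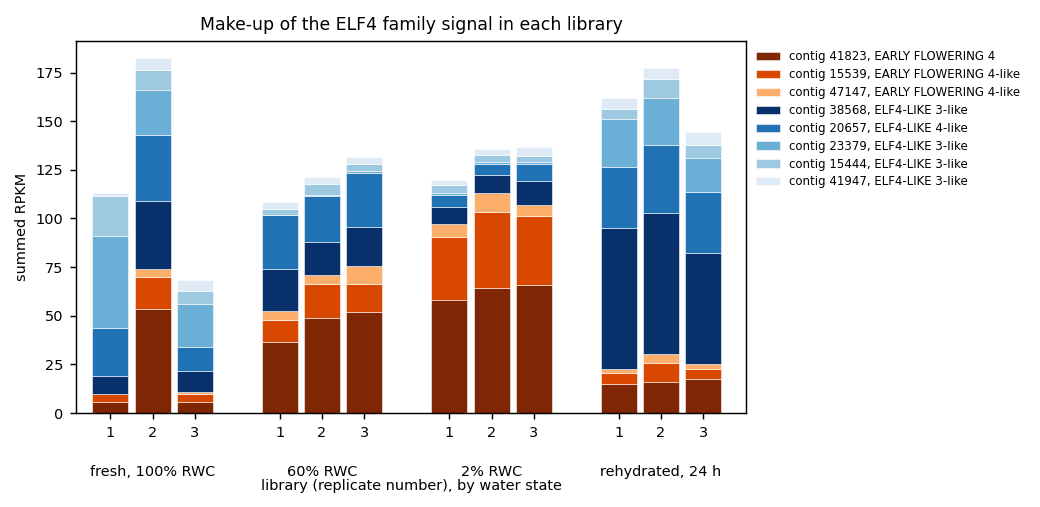
Summed RPKM of the 8 contigs in each library, stacked by contig, with EARLY FLOWERING 4 contigs in brown and orange and ELF4-LIKE contigs in blue. The brown and orange part takes 78 to 83.4% of the sum at 2% RWC and 14.1 to 17.5% after rehydration, and fresh replicate 2 (40.7%) stands apart from fresh replicates 1 and 3.

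On rewatering, 2 of the 3 EARLY FLOWERING 4 contigs fell and 3 of the 5 ELF4-LIKE contigs rose. The listing rule named directions on drying and not on rewatering. This comparison shares the 2% libraries with it, so the adjusted p below are not independent of the listing. They describe the members and are no separate test of their opposite directions. Cp_V2_contig_15539 fell from 35.4 ± 3.28 to 6.8 ± 2.29 RPKM (log2 fold -2.78, SE 0.45, edgeR quasi-likelihood adjusted p = 0.000313 by Benjamini and Hochberg). Cp_V2_contig_41823 fell from 62.9 ± 4.08 to 16.2 ± 1.09 RPKM (log2 fold -2.35, SE 0.65, edgeR adjusted p = 0.00904). Cp_V2_contig_47147 stood at 7.35 ± 2.19 and 3.17 ± 1.43 RPKM and was not called (log2 fold -1.62, SE 0.72, edgeR adjusted p = 0.0745). Its libraries of the 2 states did not overlap, and the call was gained without fresh replicate 1 or fresh replicate 2, with adjusted p of 0.0137 and 0.0201 in the same test. Fresh libraries enter this comparison only through the spread that all states share.

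Of the ELF4-LIKE contigs, 3 of 5 rose. Cp_V2_contig_23379 rose from 1.07 ± 0.115 to 22.1 ± 3.96 RPKM (log2 fold 3.96, SE 0.46, edgeR adjusted p = 3.05e-05). Cp_V2_contig_38568 rose from 10.2 ± 2.09 to 67.2 ± 9.08 RPKM (log2 fold 2.32, SE 0.39, edgeR adjusted p = 0.000369), and Cp_V2_contig_20657 from 6.64 ± 1.66 to 32.7 ± 1.74 (log2 fold 1.91, SE 0.31, edgeR adjusted p = 0.000277). For each of these 5 called members all 3 libraries of a state lay on the same side of all 3 of the other. The low contigs Cp_V2_contig_15444 (log2 fold 0.53, SE 0.43) and Cp_V2_contig_41947 (log2 fold 0.49, SE 0.39) were not called, with edgeR adjusted p of 0.321 and 0.306. In all, 5 of 8 members were called, 3 higher and 2 lower, where 56.5% of all tested contigs were called, 31.1% higher and 25.4% lower, so the count of called members is near the background. The libraries of 6 members did not overlap, against 70.4% of tested contigs. Of all calls in this comparison 55.1% were higher, and 70.2% with library totals alone. The median log2 fold was 0.51, against 0.13 over all tested contigs. None of these 5 calls was lost when any 1 library was left out or with library totals alone. DESeq2 gave no adjusted p for Cp_V2_contig_41823, so its call could not be compared in that fit.

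Compared with fresh leaves, 1 member differed after 24 h of rehydration. Cp_V2_contig_38568 was higher at 67.2 ± 9.08 than at 18.3 ± 14.4 RPKM (log2 fold 1.77, SE 0.38, edgeR adjusted p = 0.0155), and its lowest rehydrated library, at 56.7 RPKM, was above the highest fresh one, at 34.9. Its log2 fold was 2.49 (SE 0.23, edgeR adjusted p = 6.2e-05) without fresh replicate 2, and without rehydrated replicate 2 the adjusted p was 0.0578 in the same test. This comparison shares the fresh libraries with the listing rule, so its adjusted p are not independent of the listing either. In it 9.41% of all tested contigs were called, 3.71% higher and 5.69% lower, and the libraries did not overlap for 23.3%, as for this 1 member. Of all calls 39.5% were higher, and 54.1% with library totals alone, and the median log2 fold of the 8 was -0.03, against -0.06 over all tested contigs. In edgeR's test 0 members were called lower, 1 was lower at an unadjusted p below 0.05, and DESeq2 called 0 lower.

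For EARLY FLOWERING 4 the answer turned on fresh replicate 2. With all libraries Cp_V2_contig_41823 had a log2 fold of -0.48 (SE 0.63, edgeR adjusted p = 0.679) against fresh leaves. It was called higher after rehydration without fresh replicate 2, with a log2 fold of 1.26 (SE 0.22, edgeR adjusted p = 0.00217). Since that library was singled out on these same values, this call is a description. The rehydrated level of 15.1 to 17.3 RPKM was above fresh replicates 1 and 3, at 5.67 and 5.62, and below fresh replicate 2, at 53.4. Cp_V2_contig_15539 likewise went from -0.37 (SE 0.45) to 0.51 (SE 0.32), neither of them called. Cp_V2_contig_47147, with few reads, went from 0.66 (SE 0.78) to 2.32 (SE 0.84) without that library and was not called in either fit. The other ELF4-LIKE contigs had log2 folds of -1.03 (SE 0.42) to 0.35 (SE 0.38) with all libraries and were not called. Without fresh replicate 2 their folds were -1.24 (SE 0.44) to 0.57 (SE 0.44), also not called.

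**Figure D4:**
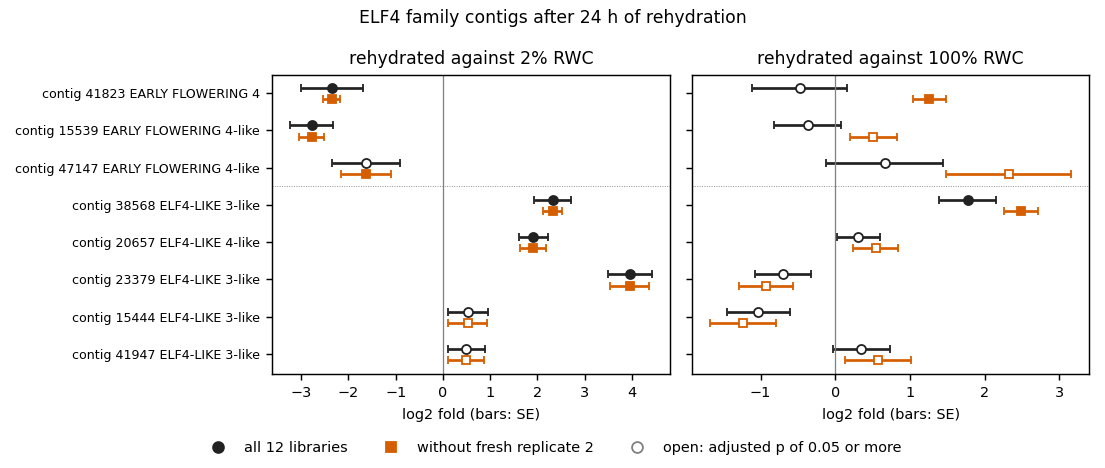
Log2 folds of the 8 contigs after 24 h of rehydration against 2% RWC (left) and against fresh leaves (right), with SE bars, from edgeR with all 12 libraries (circles) and without fresh replicate 2 (squares). Filled symbols have an adjusted p below 0.05. Against 2% RWC the 3 EARLY FLOWERING 4 contigs lie below 0 and the 5 ELF4-LIKE contigs above it.

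The courses of the 3 EARLY FLOWERING 4 contigs over the libraries lay close to each other, and those of the ELF4-LIKE contigs were more varied. As a measure of likeness, the log2 CPM (log2 counts scaled to library size) of each contig was centred on its own mean, and the root mean square difference over the 12 libraries was taken. The members were listed on their drying values, which enter this measure, so the differences between them are a description and no test. The root mean square difference was 0.48 between Cp_V2_contig_15539 and Cp_V2_contig_41823, the lowest of all pairs. For Cp_V2_contig_47147 it was 0.65 from Cp_V2_contig_41823 and 0.79 from Cp_V2_contig_15539. Among ELF4-LIKE contigs it was lowest for Cp_V2_contig_38568 and Cp_V2_contig_20657, at 0.73. Cp_V2_contig_23379 was the most distant, at 1.76 or more from every other member and 3.37 from Cp_V2_contig_41823. Cp_V2_contig_15444 and Cp_V2_contig_41947, which share a best hit, were 0.98 apart.

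By the same measure the closest contigs were found for 2 members, the one with the highest mean log2 CPM among those with a positive and among those with a negative fold at 2 against 100% RWC. The second, Cp_V2_contig_38568, had a negative fold only with fresh replicate 2 included. The 21207 candidates were described contigs in the upper 50% by mean log2 CPM. Closest to Cp_V2_contig_41823 was the B-box zinc finger protein 22 contig Cp_V2_contig_40602, of a family of light-signalling factors, at 0.26. It stood at 11.8 ± 12.7, 32 ± 1.7, 53.2 ± 3.22 and 12.2 ± 2.24 RPKM in fresh, 60%, 2% and rehydrated leaves. Next were a cysteine proteinase 15A-like contig (Cp_V2_contig_24297, 0.31), a deSI-like protein (Cp_V2_contig_36393, 0.32), a bifunctional nuclease 2-like contig (Cp_V2_contig_38200, 0.36) and a mitochondrial heat shock 70 kDa protein (Cp_V2_contig_16392, 0.36). The median candidate was 1.35 away.

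Closest to Cp_V2_contig_38568 were a subtilisin-like protease SBT5.3 contig (Cp_V2_contig_28955, 0.27), a probable polyamine aminopropyl transferase (Cp_V2_contig_13782, 0.28) and a probable chloroplastic ribose-5-phosphate isomerase 4 (Cp_V2_contig_31758, 0.28). Then came a hydroxymethylbilane synthase (Cp_V2_contig_21652, 0.28) and a porphobilinogen deaminase (Cp_V2_contig_34189, 0.29), which are both names for the same enzyme of chlorophyll and heme synthesis. The hydroxymethylbilane synthase contig stood at 43.2 ± 28 RPKM in fresh leaves, 20.5 ± 3.39 at 2% RWC and 143 ± 37.5 after rehydration. The median candidate was 1.19 away. None of these 10 contigs belongs to the clock lists, and all points share the same 12 libraries.

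**Figure D5:**
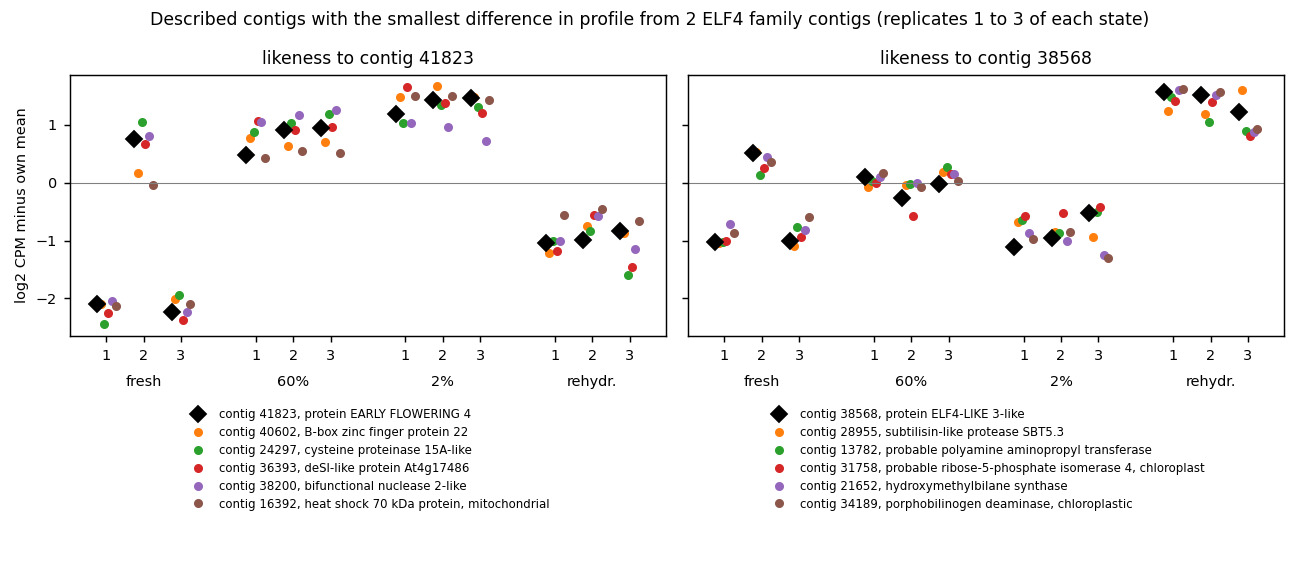
Log2 CPM minus the contig's own mean over 12 libraries, for Cp_V2_contig_41823 (left, black) and Cp_V2_contig_38568 (right, black) and the 5 described contigs with the smallest root mean square difference from each (coloured), by library within state. On the left, fresh replicates 1 and 3 lie low and fresh replicate 2 higher, and on the right all points are highest after rehydration.

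For the clock lists outside the family, counts of calls stand against 26.0% higher and 34.9% lower among all tested contigs at 2 against 100% RWC, with a median log2 fold of -0.22, and against 31.1% higher and 25.4% lower on rewatering, with a median of 0.13. Over all contigs, leaving out fresh replicate 2 gave 29357 calls at 2 against 100% RWC and 28605 on rewatering. With all libraries these were 28310 and 26255. Among 16 tested ELF3 and LUX (named PCL1 in the descriptions) contigs, 7 had higher and 1 had lower levels at 2 than at 100% RWC (8 of 16 called, median log2 fold 0.60). After rehydration 2 were higher and 8 lower than at 2% RWC (62.5% called, median -1.28). With fresh replicate 2 left out, 12 were higher and 1 lower at 2% RWC, and 2 rose and 9 fell on rewatering. ELF3 contig Cp_V2_contig_16878 stood at 24.2, 60.4 and 32.4 RPKM in fresh leaves and rose to 82.2, 73.4 and 84.8 at 2% RWC (log2 fold 1.30, SE 0.24, edgeR adjusted p = 0.000627), and without fresh replicate 2 the fold was 1.65. It fell to 41.7, 48.6 and 34.8 RPKM on rewatering (log2 fold -1.33, SE 0.24, edgeR adjusted p = 0.000586). The ELF3-like contig Cp_V2_contig_10238 and the ELF3 contig Cp_V2_contig_4648 had log2 folds of 1.36 and 1.72 at 2 against 100% RWC and -1.30 and -1.68 on rewatering, all called. The level of Cp_V2_contig_4648 is uncertain, since 22% of its reads match more than 1 contig.

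Of 48 tested contigs of LHY, REVEILLE factors and the LNK coactivators, 12 were higher and 16 lower at 2% RWC than in fresh leaves (58.3% called, median log2 fold -1.40). On rewatering 12 rose and 12 fell (24 of 48 called, median 0.41). Leaving out fresh replicate 2, these counts were 13 and 28 at 2% RWC and 18 and 16 on rewatering. LHY-like Cp_V2_contig_218 fell to 46.1 ± 0.648 RPKM at 2% RWC from a fresh level of 293 ± 261 (log2 fold -2.51, SE 0.85, edgeR adjusted p = 0.0239). Fresh replicate 2, at 13.7 RPKM, was below every 2% library, so the libraries of the 2 states overlapped. On rewatering it stood at 147 ± 36.4 RPKM and was not called (log2 fold 1.28, SE 0.82, edgeR adjusted p = 0.203), and without fresh replicate 2 it was (adjusted p = 0.000576 in the same test). The LHY/CCA1-like contig Cp_V2_contig_330 had a log2 fold of -2.70 (SE 0.86) at 2 against 100% RWC, also called. Without fresh replicate 2 the folds of these LHY contigs were -3.07 and -3.26. LNK2 (Cp_V2_contig_3141) fell from 163 ± 113 to 20 ± 4.84 RPKM (log2 fold -2.86, SE 0.49) and rose to 138 ± 34.6 on rewatering (log2 fold 2.39, SE 0.48, edgeR adjusted p = 0.00141).

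Among 21 tested pseudo-response regulator contigs, 5 were higher and 4 lower in desiccated than in fresh leaves (42.9% called, median log2 fold 0.99), and 5 rose and 5 fell on rewatering (47.6% called, median -0.88). With fresh replicate 2 left out these were 13 and 4, then 5 and 12. APRR5 contig Cp_V2_contig_42103 reached 89.2 ± 11.3 RPKM at 2% RWC against 26.5 ± 43.5 in fresh leaves and was not called (log2 fold 2.12, SE 1.14, edgeR adjusted p = 0.126). Its log2 fold was 6.19 without fresh replicate 2. APRR7 (Cp_V2_contig_10311) was not called in any of the 5 comparisons, and APRR1 (Cp_V2_contig_6251), the TOC1 protein, rose on rewatering from 16.4 ± 1.16 to 36.8 ± 7.61 RPKM (log2 fold 0.77, SE 0.26, edgeR adjusted p = 0.0255). GIGANTEA-like Cp_V2_contig_4430 stood at 61.9 ± 80.6, 83.6 ± 9.37, 57.2 ± 5.82 and 65.5 ± 27.8 RPKM in the 4 states and GIGANTEA Cp_V2_contig_27032 at 6.86 ± 8.2, 6.72 ± 1.28, 5.28 ± 0.406 and 5.41 ± 2.43, with no call in the 5 comparisons. Both were called higher at 60 and at 2 than at 100% RWC without fresh replicate 2. The ZEITLUPE contig (Cp_V2_contig_43067), a blue light receptor that targets TOC1 for breakdown, rose from 2.97 ± 2.76 to 7.53 ± 0.962 RPKM at 2% RWC (log2 fold 1.60, SE 0.51, edgeR adjusted p = 0.018) and fell on rewatering (log2 fold -1.44, SE 0.51, edgeR adjusted p = 0.0296). Its fold at 2 against 100% RWC was 2.54 without fresh replicate 2. With library totals alone none of the 3 GIGANTEA and ZEITLUPE contigs was called.

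Clock outputs and light receptors followed different courses. Of 22 tested contigs of PIF growth factors, cycling DOF factors and FLOWERING LOCUS T, 2 were higher and 18 lower in desiccated than in fresh leaves (90.9% called, median log2 fold -3.55). On rewatering 8 rose and 2 fell (45.5% called, median 1.29), or 14 and 3 with fresh replicate 2 left out. The list member with the most reads, PIF3-like Cp_V2_contig_12284, went the other way, from 18.8 ± 10.5 to 37.5 ± 0.776 RPKM at 2% RWC (log2 fold 1.24, SE 0.31, edgeR adjusted p = 0.00461). Of 35 tested contigs of phytochromes, cryptochromes and COP1, 13 were higher and 7 lower at 2% RWC (57.1% called, median 0.48). On rewatering 7 rose and 13 fell, with a median of -0.07 that was 0.32 with library totals alone. With fresh replicate 2 left out these counts were 20 and 8, then 11 and 16. The COP1 contig Cp_V2_contig_610, a ubiquitin ligase of light signalling, stood at 32 ± 7.67 RPKM in fresh leaves, rose to 79.8 ± 1.52 at 2% RWC (log2 fold 1.54, SE 0.18) and fell to 35.6 ± 4.23 (log2 fold -1.56, SE 0.18, edgeR adjusted p = 3.07e-05). Of 33 other clock contigs, mostly of TIME FOR COFFEE, 3 were higher and 16 lower at 2% RWC (57.6% called, median -1.05; 9 and 16 with fresh replicate 2 left out), and 16 rose and 3 fell on rewatering (median 0.60). XAP5 CIRCADIAN TIMEKEEPER (Cp_V2_contig_1275) had close fresh libraries, 64.5, 59.5 and 56 RPKM, and rose to 214 ± 36.5 at 2% RWC (log2 fold 2.05, SE 0.19). Without fresh replicate 2 the folds at 2 against 100% RWC were 1.13 for the PIF3-like, 1.47 for the COP1, 1.96 for the XAP5 and -3.01 for the LNK2 contig, all still called.

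The 178 tested clock contigs outside the family gave 7 higher and 22 lower calls for 60 against 100% RWC, 43 and 62 for 2 against 100%, and 43 and 32 for 2 against 60%. On rewatering 50 rose and 44 fell. With library totals alone the calls for 2 against 60% RWC were 38 higher and 39 lower. The called shares were 16.3, 59.0, 42.1 and 52.8%, against 38.9, 60.9, 44.5 and 56.5% of all tested contigs, with the widest gap at 60 against 100% RWC. With fresh replicate 2 left out the clock contigs called at 60 against 100% RWC were 41 higher and 63 lower, 104 against 29 with all libraries. Over all contigs 21885 were then called, against 18089. The gap at 60 against 100% RWC thus depended on that library, and without it the called share was higher among clock contigs than among all contigs. Since the library was singled out on such transcripts, this only describes the dependence. After rehydration 4 were higher than in fresh leaves and 0 lower in edgeR's test (12 and 13 at an unadjusted p below 0.05, 6 and 10 by DESeq2), a called share of 2.25% against 9.41% of all tested contigs. The 4, named here after their values were seen, were 3 APRR5 contigs and a phytochrome C contig. Of them Cp_V2_contig_25421 stood at 12.4 ± 3.38 RPKM in fresh and 38.2 ± 3.2 in rehydrated leaves (log2 fold 1.44, SE 0.22, edgeR adjusted p = 0.00269). When fresh replicate 2 was left out, 31 clock contigs were higher and 38 lower than in fresh leaves, 69 against 4 with all libraries. Over all contigs 11219 were then called, against 4373, so here too the clock contigs' called share went from below to above that of all contigs.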

How the data were processed

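Per the labels' protocols, stranded libraries of total leaf RNA were read on a MiSeq from both ends at 75 bp, and the files count them on assembled contigs. The sources used here give no mapper and no strand setting for the counting. The authors deposited whole-number counts of total gene reads per contig, which include reads matching several contigs, counts of reads unique to a contig, and RPKM values. The RPKM follow from the deposited counts, contig length and library total within 1.6e-08. Contig length in bases is the authors' too. Rehydrated columns were matched to the 24 h samples by name.

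Total reads of all 12 libraries were fitted in edgeR 4.0.16 (R 4.3.3) with 1 mean per state, TMM scaling, robust quasi-likelihood dispersions and filterByExpr at a count of 10 and a total of 15. This left 46494 contigs, among them all 8 members. A call is a two-sided Benjamini-Hochberg adjusted p below 0.05 over all contigs tested, and the SE is the log2 fold divided by the root of its F statistic. Log2 CPM used a prior count of 2. The fit was run on simulated counts with the same spread in all states, for rehydrated against 2% RWC only. That run does not cover the wider spread of the fresh libraries.

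The members and the clock and marker lists were chosen with earlier results of these data known. Some words of the lists were narrowed by name after the descriptions, and with them the counts, were seen. This took out PIF1 helicases, partners of COP1 and of phytochrome A, ROOT HAIR DEFECTIVE 3 and AGAMOUS-like factors. Named contigs are all members, up to 3 per core clock list and 1 per other list by mean log2 CPM, and the 5 contigs closest to each of 2 members. Alternatives were DESeq2 1.42.0, other scalings, no filter, unique reads, pairs of states alone, a replicate block and leaving out each library. The labels call the leaf pools independent, and no pair of libraries of a state matched within sampling noise (chi-square per contig at least 5.18). Same-numbered libraries did not deviate together, with correlations of -0.15 to 0.25 over 18 pairs and 3 above 0.1.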

Additional observations from a re-analysis of the deposited data

How the results depend on the processing

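The folds of the 8 contigs on rewatering and against fresh leaves were each counted once per alternative fit. Of these, 295 kept direction and side of the threshold, while 4 gained a call, 2 lost it and 3 changed sign. For Cp_V2_contig_41823 in DESeq2 only the direction could be compared, for want of an adjusted p. The sign changes were all against fresh leaves. Leaving out 1 library at a time, the log2 fold ranged from -0.68 to 0.51 for Cp_V2_contig_15539 and from -0.93 to 1.26 for Cp_V2_contig_41823, both positive only without fresh replicate 2. It ranged from -0.01, without fresh replicate 1, to 0.57 for Cp_V2_contig_41947. The cause was not tested.

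Counts of calls moved most with the samples in the fit. With only the 6 libraries of the 2 states compared, 11766 contigs were called at 60 against 100% RWC and 380 for rehydrated against fresh leaves. In that fit 0 members were called higher against fresh leaves, and the clock contigs called were 7 (60 against 100%), 128 (2 against 60%) and 0 (rehydrated against fresh). DESeq2 called 7471 contigs for rehydrated against fresh leaves, and 47 clock contigs at 60 against 100% RWC and 16 for rehydrated against fresh. DESeq2 gave no adjusted p for Cp_V2_contig_41823.

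Leaving out each library gave 13305 to 21885 calls at 60 against 100% RWC, 25101 to 29357 at 2 against 100%, 16598 to 23484 at 2 against 60%, 22675 to 28605 on rewatering and 1522 to 11219 for rehydrated against fresh. Clock contigs called ranged over 11 to 104, 93 to 147, 62 to 108, 77 to 128 and 2 to 69 in the same order. Members called on rewatering were 3 higher throughout and 2 to 3 lower, and against fresh leaves 0 to 2 higher and 0 lower. In the sources used here same-numbered libraries share only a number. The replicate block called 5 members on rewatering and 25855 contigs in all, against 26255 without it. Low counts limit Cp_V2_contig_47147 and Cp_V2_contig_23379 in drying leaves most.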
